A study of Mus musculus with 6 samples.

Results

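The 9 mature miRNAs described here are those of skeletal and heart muscle, namely mmu-miR-1a-3p, mmu-miR-1b-5p, mmu-miR-133a-3p, mmu-miR-133a-5p, mmu-miR-133b-3p, mmu-miR-206-3p, mmu-miR-208a-3p, mmu-miR-208b-3p and mmu-miR-499-5p, written without the species prefix mmu where it is clear. They were taken by name, with earlier results of these data known, from the 1390 miRNAs of a small-RNA read count table of mouse thymus. All 9 were in it. The irradiated group comprised 3 C57BL mice, 5 weeks old, that received 6 Gy as X-rays, delivered from 40 cm away at 800 cGy/min. The control group comprised 3 unexposed mice of the same strain and age. In both groups the mice were killed with pentobarbital at 24 h, and the thymus tissue was frozen and extracted with TRIzol. The labels do not say which part of the body was exposed or how the thymus was trimmed at dissection.

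Striated muscle carries a small set of miRNAs at very high levels. MiR-1 and miR-133 are cut from shared primary transcripts in both skeletal and heart muscle, where miR-1 favours differentiation and miR-133 favours the proliferation of muscle precursors. MiR-206 is a skeletal muscle relative of miR-1, while miR-208a, miR-208b and miR-499 lie in introns of myosin heavy chain genes and mark heart or slow muscle. The thymus, an organ of maturing T cells on an epithelial and vascular framework, sits in the chest above the heart, and its medulla holds rare muscle-like (myoid) cells.

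A miRNA recognises its targets mainly through its seed, bases 2 to 8 counted from its 5′ end. RefSeq entries (GRCm38.p6) were found for 5 of the 9 members, and each was identical to the deposited mature sequence. These are shown because the seed, in capitals, sorts the members into families:
miR-206-3p: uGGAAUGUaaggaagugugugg
miR-133b-3p: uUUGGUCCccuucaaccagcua
miR-208a-3p: aUAAGACGagcaaaaagcuugu
miR-208b-3p: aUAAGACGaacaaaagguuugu
miR-499-5p: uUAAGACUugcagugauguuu
By comparison of the deposited sequences, miR-1a-3p has the seed of miR-206-3p and differs from it at 4 of 22 positions. MiR-133a-3p differs from miR-133b-3p at 1 of 22 positions and outside the seed, which limits how exactly reads can be divided between them. MiR-208a-3p and miR-208b-3p differ at 3 of 22 positions, also outside the seed, and the seed of miR-499-5p differs from theirs at 1 of 7 positions. No miRNA of the table outside the 9 had any of their seeds.

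The 5 members shown come from chromosomes 1, 2 and 14, with Mir206 beside Mir133b and Mir208a near Mir208b (26558 bases apart). In GRCm38, miR-206-3p is at chr1:20679055-20679076 on the plus strand and miR-133b-3p at chr1:20682834-20682855 on the plus strand. Their hairpins are 3687 bases apart, and GENCODE M21 places both in exons of the long non-coding RNA gene Gm28653. MiR-208a-3p, at chr14:54949072-54949093 on the minus strand, lies in an intron of Myh6, the fast heart myosin. MiR-208b-3p, at chr14:54975710-54975731 on the minus strand, lies in an intron of Myh7, the slow myosin. MiR-499-5p, at chr2:155622893-155622913 on the plus strand, lies in an intron of Myh7b.

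The 6 libraries held 7730641 to 9287017 counts each, and levels are given as TMM-scaled CPM (counts scaled to a common library total, with edgeR's trimmed-mean factors). Where a miRNA had 0 counts its level could still be as high as that of 3 counts, which was 0.278 to 0.428 CPM across libraries, for counting error alone. Markers of thymocytes and other blood cells were present as the tissue label implies. All 6 miRNAs of the lymphoid list were counted, and their summed level was 6879 to 11386 CPM in irradiated libraries and 101335 to 168285 CPM in control libraries. In bulk tissue, fewer cells of a type and less RNA per cell cannot be told apart, and levels are relative to all other miRNAs of a library.

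Muscle miRNAs made up 0.0538%, 1.98% and 1.36% of the counts in irradiated replicates 1, 2 and 3, against 0.0170%, 0.0386% and 0.0482% in control replicates 1, 2 and 3, with miR-1b-5p not counted again beside miR-1a-3p. The lowest irradiated share was just above the highest control share, with exact (Clopper-Pearson) 95% intervals of 0.0523% to 0.0554% in irradiated replicate 1 and 0.0467% to 0.0497% in control replicate 3. These intervals treat every read as independent. Amplified reads are not independent molecules, so the intervals are too narrow even for counting error, and they do not cover the spread between mice. No difference between these libraries is drawn from them. Most of the signal was miR-1a-3p, which held 86.6% to 98.5% of the muscle counts in irradiated libraries and 92.4% to 94.2% in control libraries.

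Of the 9 members, 5 passed the filter on low counts and were tested with edgeR over all 519 tested miRNAs. The 4 that passed an adjusted p of 0.05 (miR-1a-3p, miR-1b-5p, miR-133a-3p and miR-206-3p) were all higher in irradiated thymus, and miR-499-5p did not pass. Over all tested miRNAs 61.3% were called, 27.7% higher and 33.5% lower. All irradiated libraries lay above all controls for the same 4 members, against 32% of all tested miRNAs (68.6% did not overlap in either direction). Since miR-1b-5p repeats the counts of miR-1a-3p, the 4 calls come from 3 separate measurements. Of these 5 members, 4 were called without irradiated replicate 1, where miR-206-3p was lost and miR-499-5p gained, and 2 without irradiated replicate 2 (miR-133a-3p and miR-206-3p). MiR-133a-5p, miR-133b-3p and miR-208a-3p entered the test without irradiated replicate 1 through the 2 remaining irradiated libraries, where they are high, and are not counted there. They entered through the same libraries when any control replicate was left out, so their calls in those fits are no separate support. The number called was 1 with library totals as scaling (miR-133a-3p), 1 with limma-voom (miR-206-3p) and 2 without the filter on low counts (miR-133a-5p and miR-133b-3p). The 4 had the 4 highest positive log2 fold changes of the 519 (decreases not ranked), and the median of the 5 tested members was 4.85 against 0.01 over all tested miRNAs. Both the ranking and the median count miR-1b-5p beside miR-1a-3p, and the members were chosen with earlier results of these data known.

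The mouse miRNA mmu-miR-1a-3p, the main one of both heart and skeletal muscle, was at 527, 19377 and 13225 CPM in irradiated replicates 1, 2 and 3, against 191, 258 and 459 CPM in control replicates 1, 2 and 3. Irradiated replicates 2 and 3 stood far above the other 4 libraries, while replicate 1 was only slightly above control replicate 3. By count it ranked 71st, 8th and 12th among the miRNAs of the irradiated libraries and 124th, 110th and 90th in the controls. The means were 11043 ± 9613 CPM in irradiated and 303 ± 139 CPM in control thymus (SD, n = 3 each), with a log2 fold change of 5.19 ± 1.24 (SE) and an edgeR adjusted p of 0.0101. Replicate 1 was 1.74-fold above the control mean, replicate 2 was 64.0-fold and replicate 3 was 43.7-fold. Without irradiated replicate 2 the call was lost (4.74, edgeR adjusted p of 0.0624; across 19 alternatives this p spanned 7.9e-09 to 0.0925). With replicate 1 as the only irradiated library the log2 fold change was 1.02.

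**Figure D1:**
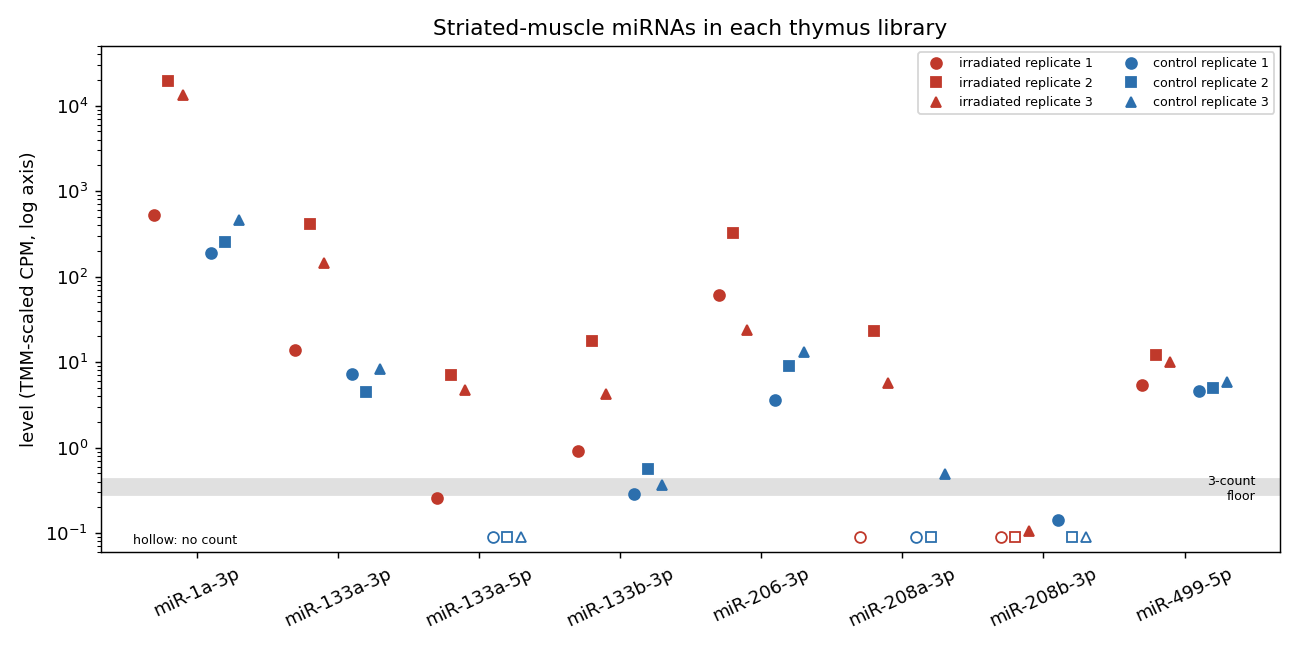
Level of each muscle miRNA (TMM-scaled CPM, log axis) in the 3 irradiated (red) and 3 control (blue) libraries, with 1 symbol per replicate number, hollow symbols for a count of 0 and a grey band for the level of 3 counts. MiR-1a-3p was at 19377 and 13225 CPM in irradiated replicates 2 and 3, and irradiated replicate 1 (527 CPM) lay near the highest control (459 CPM).

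MiR-1b-5p is listed as a miRNA of its own, but its 21 bases are the exact reverse complement of the first 21 bases of miR-1a-3p. Its counts were 4032, 162113 and 124471 in irradiated replicates 1, 2 and 3, and 1339, 2775 and 3733 in control replicates 1, 2 and 3. In every library this was 99.8% to 99.9% of the miR-1a-3p count. Its log2 fold change (5.19) therefore adds no measurement to that of miR-1a-3p, and the counts do not tell the strands apart.

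The passenger strands of miR-1 had few counts in every library. MiR-1a-2-5p had 4, 5 and 2 counts in irradiated replicates 1, 2 and 3, against 2, 11 and 6 counts in control replicates 1, 2 and 3. MiR-1b-3p was listed with identical counts in all 6 libraries, and the groups overlapped. MiR-1a-1-5p, the strand specific to Mir1a-1, had 2 counts in irradiated replicate 2 and none in the other 5 libraries. All 3 strands were under the filter on low counts.

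The miRNA mmu-miR-133a-3p, the partner of miR-1 on the same primary transcripts, was at 13.8, 419 and 146 CPM in irradiated replicates 1, 2 and 3, against 7.28, 4.45 and 8.34 CPM in control replicates 1, 2 and 3. The groups did not overlap, and the order of the irradiated libraries was that of miR-1a-3p. The log2 fold change was 4.85 ± 1.16 (SE) with an edgeR adjusted p of 0.0104. Irradiated replicate 1 was 2.07-fold above the control mean, against 62.6-fold and 21.9-fold in replicates 2 and 3. The call was lost without control replicate 3 (5.08, edgeR adjusted p of 0.0556; across 19 alternatives it spanned 1.8e-08 to 0.0932), the log2 fold change was 3.81 without irradiated replicate 2, and it was 1.27 with irradiated replicate 1 alone.

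The other strand of the same hairpins, miR-133a-5p, had 2, 59 and 45 counts in irradiated replicates 1, 2 and 3 and no count in any control library. The irradiated mean of 4.03 ± 3.45 CPM (SD, n = 3) was at least 11.2-fold higher than the mean control level that 3 counts per library would give. MiR-133b-3p, made in skeletal muscle from the locus of miR-206, was at 0.913, 17.7 and 4.25 CPM in irradiated replicates 1, 2 and 3, against 0.285, 0.557 and 0.368 CPM in control replicates 1, 2 and 3. Neither passed the filter on low counts. Fitted without that filter, miR-133b-3p was higher by 4.06 ± 0.69 (SE) on the log2 scale, adjusted p of 6.4e-06 in edgeR, and miR-133a-5p reached 6.0e-09 in the same edgeR fit. That fit did not call the more abundant miR-1a-3p, miR-133a-3p and miR-206-3p (edgeR adjusted p of 0.0925, 0.0932 and 0.116). The small p-values rest on few counts and do not make these strands the more certain increases. MiR-133b-3p had 7 counts in irradiated replicate 1 and 6 in control replicate 2. For both, the groups did not overlap, though the value of miR-133a-5p in irradiated replicate 1 and most control values of miR-133b-3p were near or below the level of 3 counts.

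The miRNA mmu-miR-206-3p, the skeletal muscle member of the miR-1 family, was at 61.2, 320.4 and 24.1 CPM in irradiated replicates 1, 2 and 3, against 3.57, 9.09 and 13.1 CPM in control replicates 1, 2 and 3. All 3 irradiated libraries were above the controls, but here replicate 3 and not replicate 1 was the lowest. The means were 135 ± 161 CPM in irradiated and 8.60 ± 4.80 CPM in control thymus (SD, n = 3 each). The log2 fold change was 3.97 ± 1.06 (SE) with an edgeR adjusted p of 0.0161. Irradiated replicates 1, 2 and 3 were 7.12-fold, 37.3-fold and 2.80-fold above the control mean. The edgeR adjusted p was 0.0507 without irradiated replicate 1, 0.0502 without control replicate 2 and 0.0586 without control replicate 3. Across the alternatives with more than 1 irradiated library the adjusted p spanned 3.1e-04 (DESeq2) to 0.116 (edgeR without the filter on low counts). The log2 fold change was 2.52 without irradiated replicate 2 and 3.03 with irradiated replicate 1 alone.

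**Figure D2:**
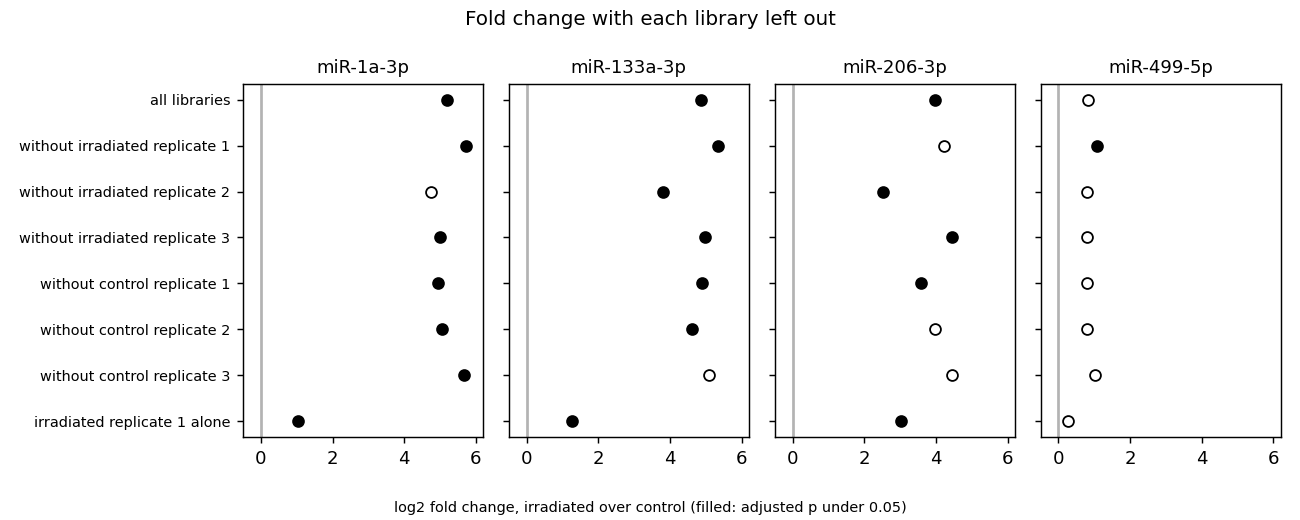
Log2 fold change of irradiated over control (x axis) for the 4 separately measured members that were tested, with all libraries, with each library left out in turn and with irradiated replicate 1 as the only irradiated library; filled circles passed an edgeR adjusted p of 0.05. With irradiated replicate 1 alone the value was 1.02 for miR-1a-3p, 1.27 for miR-133a-3p, 3.03 for miR-206-3p and 0.25 for miR-499-5p.

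The miRNAs of the myosin heavy chain genes were at low levels, and miR-499-5p, the only one tested with all libraries, did not pass. The miRNA mmu-miR-208a-3p, a heart miRNA that takes part in the stress response of heart muscle, had 0, 193 and 54 counts in irradiated replicates 1, 2 and 3, against 0, 0 and 4 counts in control replicates 1, 2 and 3. These were 23.0 and 5.73 CPM in irradiated replicates 2 and 3, so that the same pair of libraries that was high in miR-1a-3p carried the heart miRNA. The groups overlapped because irradiated replicate 1 had no count, and miR-208a-3p did not pass the filter on low counts. Fitted without the filter it was at 5.73 ± 2.42 (SE) on the log2 scale with an edgeR adjusted p of 0.190. It passed the filter when irradiated replicate 1, the irradiated library without a count, was left out, and that choice fixes a difference, so no test is drawn from that fit. MiR-208a-3p also passed the filter without control replicate 1, 2 or 3 and was not called there (edgeR adjusted p of 0.0943, 0.104 and 0.127).

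The Mir208a hairpin (chr14:54949060-54949142, minus strand, GRCm38.p6) is shown with its mature 5′ and 3′ strands in capitals, since counts of both strands were found in irradiated replicate 2:
Mir208a: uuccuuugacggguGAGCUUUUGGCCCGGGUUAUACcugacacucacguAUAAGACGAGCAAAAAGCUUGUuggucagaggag
MiR-208a-5p had 11 counts in irradiated replicate 2 and none in the other 5 libraries, including irradiated replicate 3 with its 54 counts of the 3′ strand. MiR-208b-3p, from the slow myosin gene, had 1 count in irradiated replicate 3 and 1 in control replicate 1 and none elsewhere, and so was not detectable at this depth.

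The miRNA mmu-miR-499-5p, from Myh7b and expressed in heart and slow muscle, was at 5.35, 12.2 and 9.98 CPM in irradiated replicates 1, 2 and 3, against 4.56, 5.01 and 5.89 CPM in control replicates 1, 2 and 3. The groups overlapped, since irradiated replicate 1 was below control replicate 3. The log2 fold change was 0.83 ± 0.37 (SE) with an edgeR adjusted p of 0.0764, so that it did not pass. It passed without irradiated replicate 1 (1.07, edgeR adjusted p of 0.0125). Across the alternatives with more than 1 irradiated library the adjusted p spanned 0.00899 (edgeR, upper-quartile factors) to 0.242 (edgeR, library totals as scaling). MiR-499-3p, its other strand, had 1 count in control replicate 1 and none elsewhere.

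Beyond the 9 members, 13 other strands of striated muscle were listed, and 8 of them were in the table. Of these, 3 were tested, all of the miR-486 hairpins, whose miRNA is abundant in both muscle and red blood cells. MiR-486a-5p was at 260.4, 716 and 456 CPM in irradiated replicates 1, 2 and 3, against 272, 203 and 338 CPM in control replicates 1, 2 and 3. The groups overlapped, and the log2 fold change was 0.82 ± 0.37 (SE; edgeR adjusted p of 0.0792). MiR-486a-3p (0.84, edgeR adjusted p of 0.0744) and miR-486b-3p (0.82, edgeR adjusted p of 0.0787) repeated nearly the same counts and did not pass. With DESeq2 all 3 passed, and 1 of the 3 had an unadjusted p under 0.05 in edgeR.

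The make-up of the muscle signal was compared within libraries, where scaling between libraries plays no part. The members compared are 21 or 22 bases long. Per 1000 counts of miR-1a-3p there were 116, 16.5 and 1.82 counts of miR-206-3p in irradiated replicates 1, 2 and 3, against 18.6, 35.3 and 28.6 counts in control replicates 1, 2 and 3. The irradiated libraries lay on both sides of the controls, and the group difference of the log2 ratio was −0.82 (irradiated −6.04 ± 3.00, control −5.22 ± 0.46, SD, n = 3 each, exact two-sided permutation p of 0.7). Without irradiated replicate 3 that difference was 0.71, the opposite sign.

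Per 1000 counts of miR-1a-3p there were 26.3, 21.6 and 11.1 counts of miR-133a-3p in irradiated replicates 1, 2 and 3, against 38.0, 17.3 and 18.2 counts in control replicates 1, 2 and 3. Over the 6 libraries this ratio ran from 11.1 to 38.0, and that of miR-206-3p from 1.82 to 116. The groups overlapped (log2 difference −0.32, exact two-sided permutation p of 0.6), and the difference was 0.05 without irradiated replicate 3 or without control replicate 1. MiR-133b-3p relative to miR-133a-3p also overlapped between groups (log2 difference −0.64, exact two-sided permutation p of 0.4).

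MiR-499-5p relative to miR-1a-3p had groups that did not overlap. Per 1000 counts of miR-1a-3p there were 10.2, 0.628 and 0.755 counts of miR-499-5p in irradiated replicates 1, 2 and 3, against 23.8, 19.4 and 12.8 counts in control replicates 1, 2 and 3. The log2 ratio was −9.20 ± 2.25 in irradiated and −5.77 ± 0.46 in control libraries (SD, n = 3 each), a difference of −3.43 with an exact two-sided permutation p of 0.1. That is the smallest p that 3 against 3 libraries allow, and adjusted over the 4 ratios tested it was 0.4. The heart miRNA miR-208a-3p was at 0, 1.19 and 0.434 counts per 1000 of miR-1a-3p in irradiated replicates 1, 2 and 3, against 0, 0 and 1.07 in control replicates 1, 2 and 3.

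**Figure D3:**
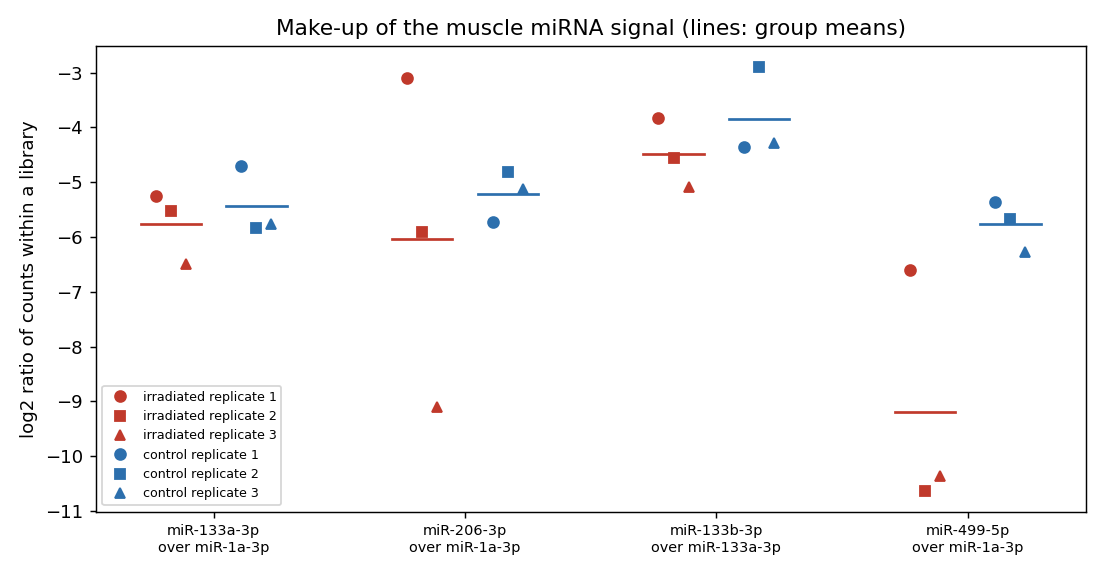
Log2 ratio of the counts of 2 muscle miRNAs within each library (y axis) for 4 pairs, with the 3 irradiated libraries in red left of the 3 controls in blue and lines at the group means. MiR-206-3p relative to miR-1a-3p spread from −3.10 to −9.10 among irradiated libraries and from −4.82 to −5.72 among controls, and miR-499-5p relative to miR-1a-3p was lowest in irradiated replicates 2 and 3.

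The libraries high in miR-1a-3p also differed in markers of other tissues, whose part in the muscle result was not tested. All 4 erythroid miRNAs found in the table were counted, and their summed level was 608, 5101 and 2026 CPM in irradiated replicates 1, 2 and 3, against 517, 483 and 731 CPM in control replicates 1, 2 and 3. Of the 4, 3 were called higher, including both strands of the miR-144 hairpin, against 27.7% of all tested miRNAs. MiR-486a-5p was not called (edgeR adjusted p of 0.0792). MiR-451a, the main miRNA of red blood cells, was at 335, 4095 and 1411 CPM in irradiated replicates 1, 2 and 3, against 234, 268 and 374 CPM in control replicates 1, 2 and 3 (log2 fold change 2.74 ± 0.83 SE, edgeR adjusted p of 0.0264). That call was lost without control replicate 1, 2 or 3 (edgeR adjusted p of 0.0718, 0.0771 and 0.0743), and without irradiated replicate 2 the log2 fold change was 1.80.

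The 4 brown fat miRNAs summed to 5690.5, 23119.8 and 17389 CPM in irradiated replicates 1, 2 and 3, against 10125, 8004 and 9206 CPM in control replicates 1, 2 and 3. Most of this was miR-378a-3p (0.75 ± 0.43 SE, edgeR adjusted p of 0.144), and 1 of the 4 was called higher, against 27.7% of all tested miRNAs. In both lists irradiated replicate 2 was highest, replicate 3 next and replicate 1 lowest of the irradiated libraries, the order of miR-1a-3p. Irradiated replicate 1 was within the range of the controls in the erythroid list and below it in the brown fat list, whereas for miR-1a-3p it was above all controls.

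In the other lists the level of irradiated replicate 1 was also away from that of the controls. Relative to the control mean, the epithelial list was at 3.69-fold, 3.01-fold and 4.45-fold in irradiated replicates 1, 2 and 3, and the endothelial list was at 2.94-fold, 4.60-fold and 3.41-fold. The fibroblast list was at 3.36-fold, 6.51-fold and 4.85-fold, and the smooth muscle list at 1.80-fold, 1.96-fold and 1.22-fold. In the smooth muscle list irradiated replicate 3 (185413 CPM) lay within the controls (84734 to 232959 CPM). Its most abundant miRNAs, miR-143-3p and miR-145a-5p, were not called (edgeR adjusted p of 0.118 and 0.177). All 3 epithelial and all 3 fibroblast miRNAs were called higher, as were 1 of 2 endothelial and 2 of 4 smooth muscle miRNAs. Among all tested miRNAs 27.7% were called higher and 33.5% lower. Other strands of the epithelial miR-200 family differed in outcome. MiR-200a-5p (log2 fold change 1.13), miR-200b-5p (1.32) and miR-200c-3p (2.02) were called higher. MiR-200a-3p (0.63), miR-141-3p (0.34), miR-141-5p (0.77) and miR-429-3p (0.37) were not (edgeR adjusted p of 0.0515, 0.312, 0.0688 and 0.351). Of the lymphoid list 5 of 6 were called lower. The sum of all 6 was at 0.0807-fold, 0.0487-fold and 0.0648-fold of the control mean in irradiated replicates 1, 2 and 3. Most of that sum in controls was miR-181a-5p (log2 fold change −4.83), and the decrease differed between miRNAs. The log2 fold change was −5.70 for miR-128-3p and −1.39 for miR-142a-5p. MiR-150-5p was not called (−0.31, edgeR adjusted p of 0.373).

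Markers of liver, neural and neuroendocrine cells were also counted. MiR-122-5p, the liver miRNA, was at 1.96, 4.89 and 3.93 CPM in irradiated replicates 1, 2 and 3. In control replicates 1, 2 and 3 it was at 1.28, 0.371 and 0.368 CPM (log2 fold change 2.47 ± 0.57 SE, edgeR adjusted p of 0.00456). In control replicates 2 and 3 this was near the level of 3 counts (0.278 and 0.368 CPM), which limits the fold change. The log2 fold change was 3.27 without control replicate 1. The neural miRNA miR-124-3p was at 0.849 to 1.91 CPM in irradiated and 0.285 to 0.464 CPM in control libraries. Its control values were near or below the level of 3 counts, and it did not pass the filter on low counts. MiR-9-5p, another neural miRNA, was at 222, 526 and 309 CPM in irradiated replicates 1, 2 and 3, against 134, 189.7 and 148 CPM in control replicates 1, 2 and 3 (log2 fold change 1.17 ± 0.35 SE, edgeR adjusted p of 0.0147). Of the 2 neuroendocrine miRNAs, miR-7a-5p was called lower, at 2077, 1379 and 2358 CPM in irradiated replicates 1, 2 and 3, against 2573, 3786 and 3519 CPM in control replicates 1, 2 and 3 (log2 fold change −0.76 ± 0.28 SE, edgeR adjusted p of 0.0348). That call was lost when any library other than irradiated replicate 1 was left out (edgeR adjusted p of 0.0797 to 0.259), and the log2 fold change was −0.36 without irradiated replicate 2. MiR-375-3p was at 951 to 1301 CPM in irradiated and 895 to 1353 CPM in control libraries (log2 fold change 0.03, edgeR adjusted p of 0.939), and the groups overlapped.

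**Figure D4:**
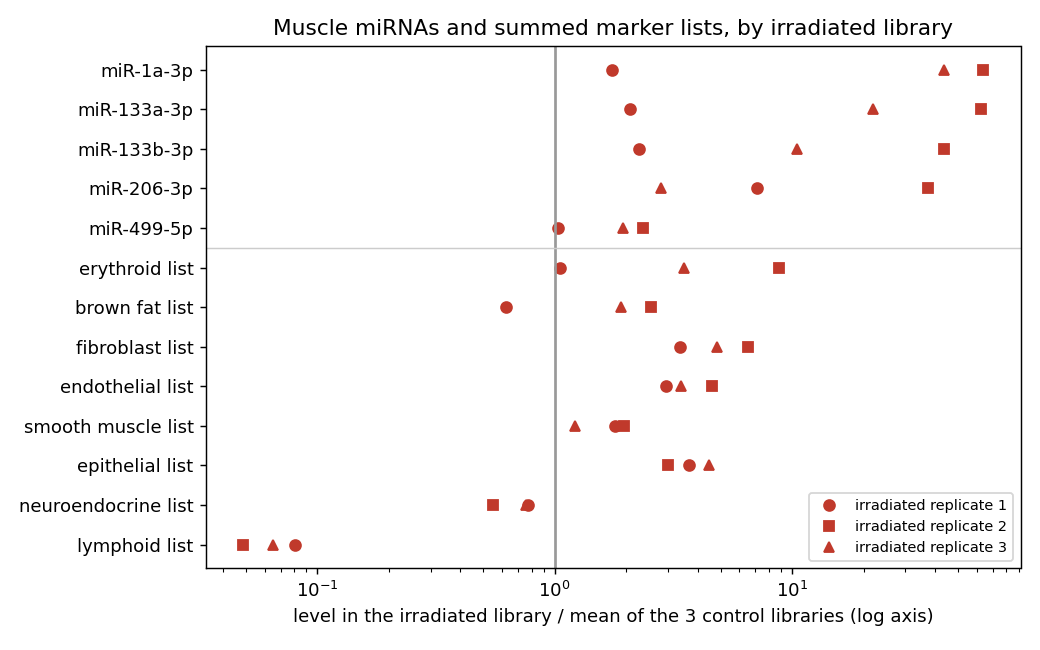
Level of 5 muscle miRNAs and of the summed marker lists in each irradiated library divided by the mean of the 3 control libraries (x axis, log scale), with 1 symbol per irradiated replicate. MiR-1a-3p was 1.74-fold, 64.0-fold and 43.7-fold above the control mean in replicates 1, 2 and 3, and the erythroid list 1.05-fold, 8.84-fold and 3.51-fold.

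The miRNAs with profiles closest to that of miR-1a-3p included 3 of the erythroid list. Likeness was the root-mean-square difference between log2 levels centred over the 6 libraries. It was taken over 307 tested miRNAs averaging 10 CPM or more across all 6 libraries, and its median was 2.70. Among the members it was 0.56 for miR-133a-3p, 1.80 for miR-206-3p and 2.18 for miR-499-5p. Outside the members the 6 closest were miR-144-3p (0.863), miR-144-5p (0.917), miR-451a (1.28), miR-193b-3p (1.42), miR-199a-3p (1.51) and miR-365-3p (1.55). The first 3 are red-cell miRNAs, miR-193b-3p and miR-365-3p come from the brown fat list and miR-199a-3p from the fibroblast list. MiR-144-3p and miR-144-5p are strands of the same hairpin, so they do not stand for separate loci. In control libraries miR-144-3p, miR-144-5p, miR-193b-3p and miR-365-3p averaged 9.86, 4.15, 3.37 and 3.31 CPM. They passed the minimum of 10 CPM only through irradiated libraries, where miR-1a-3p is also high. Their closeness against the median of 2.70 is therefore no support for a link. With deviations from each group's own mean in place of the 6-library mean, 4 of the 6 were still among the 6 closest, while miR-193b-3p ranked 18th and miR-199a-3p 47th of 307.

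MiR-144-3p, for example, was at 9.26, 217 and 115 CPM in irradiated replicates 1, 2 and 3, against 8.56, 9.0 and 12.0 CPM in control replicates 1, 2 and 3. As with miR-1a-3p, irradiated replicates 2 and 3 were high, but irradiated replicate 1 lay within the range of the controls. Its log2 fold change was 3.53 ± 1.00 (SE, edgeR adjusted p of 0.0203), and the call was lost without control replicate 1, 2 or 3 (edgeR adjusted p of 0.0611, 0.0626 and 0.0804). Without irradiated replicate 2 it was 2.87. The 2 miRNAs nearest to miR-1a-3p in mean level over all 6 libraries, miR-1b-5p aside, were miR-140-3p and miR-99a-5p. No library held miR-1a-3p near that mean of 5673 CPM. In control libraries it was at 191 to 459 CPM, against 4847 to 6874 CPM for miR-140-3p and 1904 to 2466 CPM for miR-99a-5p. Within libraries these miRNAs were thus of unlike abundance. MiR-140-3p did not pass (0.03, edgeR adjusted p of 0.959), while miR-99a-5p was higher by 1.96 (edgeR adjusted p of 2.0e-04) with less spread, at 6639, 10869.5 and 8142 CPM in irradiated replicates 1, 2 and 3.

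The authors' deposited table gives log2 fold changes of irradiated over control from the same libraries, so it is no separate check. In the authors' deposited table miR-1a-3p was at 5.18 (adjusted p of 3.7e-05), miR-133a-3p at 4.82 (6.1e-05), miR-133b-3p at 4.18 (6.6e-06) and miR-206-3p at 3.98 (5.2e-04). For miR-208a-3p the authors' deposited table gives 5.88 (adjusted p of 0.121), and for miR-499-5p 0.87 (adjusted p of 0.0972).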

How the data were processed

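MicroRNAs were counted in 6 thymus libraries, 3 irradiated and 3 control. Per the file headers, the deposited values are whole-number read counts per mature miRNA. The authors' deposited log2 fold changes and p-values were copied only where named. DESeq2 1.10.1 appears in the submitters' processing notes. Neither labels nor headers name the aligner, counter or genome build. Another 6 columns of read counts, for samples without labels, were left aside.

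Counts were tested with edgeR 4.0.16 (R 4.3.3; TMM, filterByExpr, robust quasi-likelihood test), with Benjamini-Hochberg adjustment over 519 tested miRNAs of 1390 and a threshold of 0.05. The scripts were tested on simulated data. Within-library ratios had 0.5 added to each count. Sequences and coordinates came from RefSeq (GRCm38.p6) and gene context from GENCODE M21. Alternatives included DESeq2 1.42.0 and limma 3.58.1 (voom).

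The members, marker lists and naming rule were chosen with earlier results of these data known. Named miRNAs are the 9 members, the other muscle strands, up to 2 abundant miRNAs of each list (not all are printed), the 6 closest profiles and the neighbours in mean level. Beyond that rule, other strands of the miR-200 family and further miRNAs of the lymphoid list are named. Replicate numbers did not pair the libraries.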

Additional observations from a re-analysis of the deposited data

How the results depend on the processing

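The direction of miR-1a-3p, miR-133a-3p, miR-206-3p and miR-499-5p was the same under every alternative run, while calls depended on the setting, and miR-1b-5p moved with miR-1a-3p. With library totals as scaling, 1 member passed the threshold, against 4 with TMM factors (miR-1a-3p 5.08, miR-206-3p 3.78). Without the low-count filter, which tests more miRNAs (1244 against 519), 2 passed (miR-1a-3p 5.11, miR-133a-3p 4.76, miR-206-3p 3.89). With limma-voom 1 passed (miR-1a-3p 4.17, miR-133a-3p 3.88). At an adjusted p of 0.01, 0 passed in edgeR, where 4 had an unadjusted p under 0.05. In edgeR miR-1a-3p (5.19), miR-133a-3p (4.85) and miR-206-3p (3.97) thus all lost their call, while 4 passed 0.01 in DESeq2. MiR-499-5p passed with median-of-ratios factors (0.92), upper-quartile factors (1.24), DESeq2 (0.93) and without miR-21a-5p (1.01). The cause of these differences was not tested.

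Leaving out each library gave 2 to 7 members past the threshold (2 without irradiated replicate 2, 7 without irradiated replicate 1, of which miR-133a-5p, miR-133b-3p and miR-208a-3p are tested there only through the 2 irradiated libraries where they are high) and 266 to 374 miRNAs. The same holds without control replicate 1, 2 or 3, where 6, 5 and 3 members passed. MiR-133a-5p is among those in each, and miR-133b-3p without control replicate 1 or 2. Log2 fold changes then ran from 4.74 to 5.73 for miR-1a-3p, 3.81 to 5.35 for miR-133a-3p, 2.52 to 4.46 for miR-206-3p and 0.79 to 1.07 for miR-499-5p. The difference in the share of counts (1.097 percentage points) ran from 0.673 to 1.64 and was 2.16 with miR-1b-5p added. Log2 ratio differences ran from −0.58 to 0.05 (miR-133a-3p over miR-1a-3p, 0.0499 without irradiated replicate 3 and 0.0474 without control replicate 1), −2.29 to 0.71 (miR-206-3p over miR-1a-3p), −0.97 to −0.17 (miR-133b-3p over miR-133a-3p) and −4.73 to −2.71 (miR-499-5p over miR-1a-3p). With irradiated replicate 1 alone, that library is taken to vary as the controls do.

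Of all miRNAs 318 passed, and 210 with a minimum mean of 10 CPM. Calls with the replicate number as a block were 298 in all and 4 among the members, but same-numbered libraries did not deviate together (correlations 0.0994, −0.0244 and 0.230). Over the whole table the median log2 fold change was 0.01 with TMM, 0.12 with median-of-ratios factors, 0.44 under upper-quartile scaling and −0.13 when libraries were scaled by their totals. Counts of 3 or fewer limit miR-208b-3p and most passenger strands.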
